A study of Mus musculus with 8 samples.

Results

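Chemokine ligands are small secreted proteins that guide leukocytes by binding to receptors of the G protein-coupled class. They are named by the spacing of their first cysteines (CC, CXC, CX3C and XC), and each draws the cells that carry its receptor, such as monocytes for CCR2 or neutrophils for CXCR2. In fat, stromal cells, macrophages and endothelium all release them, and those that recruit monocytes are known for their link to obesity. The ligand list described here was chosen with earlier results of these data known, and its members were set by name, not by measured values. It holds 35 mouse genes of known ligands. Of these, 34 had an array probe whose transcript identifier matched the reference gene names, out of 45477 genes or unnamed features on the array. No probe was matched to Cxcl11, which the reference lists as a transcribed pseudogene, so it was not analysed here. Where a gene had several probes, as 6 ligands did, the probe that was brightest on average over the 8 arrays was used.

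The cells came from the abdominal subcutaneous fat of C57BL/6 males that entered the study at 6 weeks of age, and were digested out with collagenase, plated and passaged as adherent cells. The groups, of 2 arrays each, were high-fat diet (60% fat) for 24 weeks (HF24), control chow for 24 weeks (C24), high-fat diet for 12 weeks (HF12) and control chow for 12 weeks (C12). The titles call the 24-week groups old and the 12-week groups young, so the mice fed longer were also older, and feeding time cannot be told apart from age. Total RNA was labelled with Cy3, 1 dye, and each array held 1 sample. The labels do not say whether the arrays of a group came from separate mice or cultures, so the p-values cover array-to-array spread alone, possibly of technical origin, and 2 arrays per group limit the precision.

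All 8 arrays lay on 1 slide and were read in 1 scan. The 24-week arrays filled one row and the 12-week arrays the other, and the high-fat arrays lay in other columns than the chow arrays, so slide position cannot be told apart from feeding time or diet. The cells are labelled mesenchymal stem cells, and all 11 stromal markers with a probe were well above background on every array, although the surface enzyme gene Nt5e read 135 and 136 on the HF24 arrays and 182 and 168 on the C24 arrays, 102 and 99.2 on the HF12 arrays and 1083 and 915 on the C12 arrays. All 18 macrophage markers were also well above background on both arrays of HF24 and of HF12, 17 on those of C24 and 16 on those of C12. The share of probes well above background ran from 57.6% to 62.4% on the 24-week arrays and from 65.1% to 67.2% on the 12-week arrays, and no spot was saturated.

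Levels are given as normalized intensity, which is the processed brightness of a probe after each array was scaled to the same 75th percentile, 948. A probe's brightness depends on its sequence as well as on its transcript, so levels are compared only between arrays and never between genes. Of the 34 ligands, 30 were well above background on both arrays of at least 1 group and were tested, 23 of them on all 8 arrays. The other 7 passed this filter only through groups in which they were bright. The untested ligands were Ccl22, Cxcl15, Cxcl17 and Ppbp, which were well above background on no array. A gene is called when limma's two-sided adjusted p is under 0.05 over all 29577 genes tested, and changes are log2 differences ± standard error with 2 arrays per group. Where a gene was dim in 1 group, "at least N-fold" sets the bright group against the higher of the dim probe's own signal and the lowest signal well above background, array by array.

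After 24 weeks of feeding most of the tested ligands were higher than after 12 weeks, on either diet. Between C24 and C12, 21 of the 30 tested ligands were called higher and 5 lower, where 23.9% of all genes tested were called higher and 22.2% lower. Between HF24 and HF12, 18 were called higher and 4 lower, against 22.5% and 24.4% of all genes. The median log2 change of the tested ligands was 1.20 between the chow groups and 0.60 between the high-fat groups, beside medians of 0.02 and −0.01 for all genes. Some of these calls were fixed by the filter, which Ccl1, Cxcl2, Cxcl3 and Xcl1 passed only through groups at 24 weeks and Ccl28 only through those at 12 weeks. Among ligands measured in both groups compared, 17 of 25 were called higher and 4 lower between C24 and C12, and 14 of 23 higher and 2 lower between HF24 and HF12. One of the 21 calls between C24 and C12, Ccl1, was not well above background in either group. Without C12 replicate 2, or without C24 replicate 1, 3 ligands were called lower between C24 and C12.

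Diet split the ligands more evenly. Between HF12 and C12, 13 were called higher and 9 lower, where 13.6% and 17.4% of all genes were. One of the 9, Cxcl2, was not well above background in either group. The median was −0.06 beside −0.03 for all genes, and 0.10 without the 4 ligands that were dim in both groups. Between HF24 and C24, 8 were called higher and 11 lower, where 15.1% and 19.0% of all genes were. Of these calls, 7 and 9 were among the 26 ligands measured in both groups. The higher call of Ccl1 was fixed by the filter, which it passed only through HF24. The median over all tested ligands was −0.05 beside 0.02. Without HF24 replicate 1, 5 were called higher.

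The interaction asks whether the diet change at 24 weeks differed from that at 12 weeks. It was called negative for 14 tested ligands and positive for 5, beside 16.0% and 13.9% of all genes. Among the 23 ligands measured in every group, 12 were negative and 4 positive, and only those are named below. Without C12 replicate 2, HF12 replicate 2 or C24 replicate 1, 3 of the 30 were called positive. The comparisons share groups, so their values are set side by side and are not independent of each other.

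**Figure D1:**
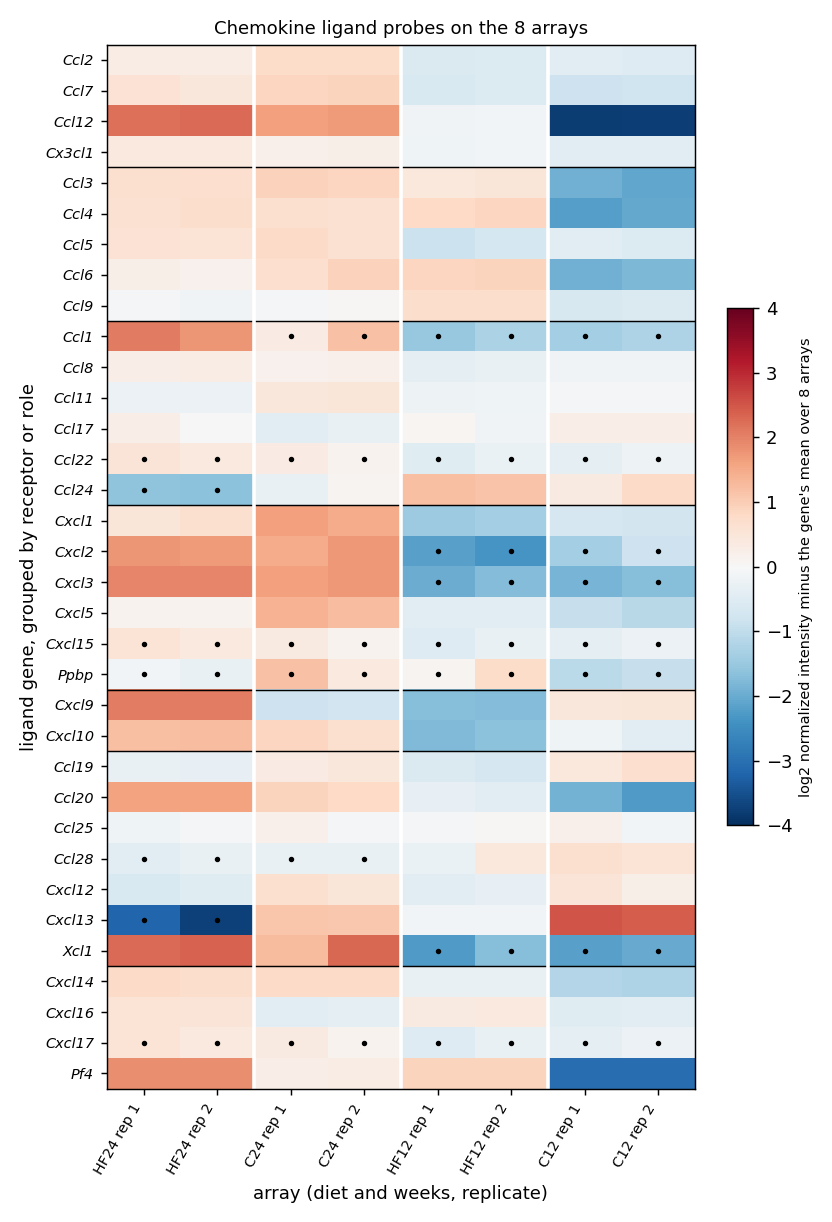
Log2 normalized intensity of each of the 34 ligand probes on each of the 8 arrays, minus that gene's own mean over the arrays, with ligands in rows and arrays in columns (HF24, C24, HF12, C12). Dots mark values not well above background. The replicate arrays of a group are alike, Ccl12 and Pf4 are deep blue on the C12 arrays, and Cxcl9 is red on the HF24 arrays and blue on the HF12 arrays.

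The ligands of the monocyte receptors were higher after 24 than after 12 weeks on both diets, 4 of 4 in each comparison. Of all genes, 23.9% were called higher on chow and 22.5% on the high-fat diet. Ccl2, the main monocyte attractant of inflamed fat, read 160312 and 159621 on the HF24 arrays, 217084 and 217175 on the C24 arrays, 87575 and 88091 on the HF12 arrays, and 96659 and 90766 on the C12 arrays. It fell by 0.44 ± 0.06 with high-fat diet at 24 weeks (adjusted p = 0.00228) and its 12-week change was −0.09 ± 0.06, adjusted p = 0.261. Between 24 and 12 weeks it rose by 1.21 ± 0.06 on chow and 0.86 ± 0.06 on the high-fat diet. All 4 groups kept apart without overlap, with C24 the highest. Its neighbour and close relative Ccl7 read 66000.1 and 60948 on the HF24 arrays, 80726 and 81381 on the C24 arrays, 29229.7 and 30196 on the HF12 arrays, and 24883 and 25624 on the C12 arrays. Ccl7 rose with high-fat diet at 12 weeks (0.23 ± 0.06, adjusted p = 0.0351) and fell at 24 weeks (−0.35 ± 0.06, adjusted p = 0.00778), with an interaction of −0.59 ± 0.09, adjusted p = 0.00505. The 12-week call was lost when any 1 array of C12, HF12 or C24 was left out, with adjusted p of 0.0601 to 0.144, and ran at 0.00629 to 0.144 over 18 alternatives. The interaction of Ccl2 was −0.35 ± 0.08, adjusted p = 0.0214, and leaving out any 1 array of HF12, C24 or HF24 took its adjusted p to 0.061 to 0.073, within a range of 0.00291 to 0.073 over 17 alternatives.

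Ccl12, a monocyte attractant of mice that also binds CCR2, changed far more than its neighbours. It read 7601 and 7901 on the HF24 arrays, 5104 and 5268 on the C24 arrays, 1495 and 1502 on the HF12 arrays, and 117 and 120.2 on the C12 arrays. The C12 arrays stood lowest and the HF24 arrays highest, with no overlap between any groups. With high-fat diet it was 12.6-fold higher at 12 weeks (log2 3.66 ± 0.05, adjusted p = 1.7e-06) and 1.49-fold higher at 24 weeks (0.58 ± 0.05, adjusted p = 0.000816). It was 43.7-fold higher in C24 than in C12 (5.45 ± 0.05) and 5.17-fold higher in HF24 than in HF12 (2.37 ± 0.05). The interaction was −3.08 ± 0.08, adjusted p = 4.23e-05. Cx3cl1, the membrane-anchored ligand fractalkine, moved little by comparison, reading 4889 and 4940.2 on the HF24 arrays, 4347 and 4391 on the C24 arrays, 3348 and 3458 on the HF12 arrays, and 2724 and 2790.0 on the C12 arrays. It rose with high-fat diet at 12 weeks (0.30 ± 0.05, adjusted p = 0.00786), and its 24-week change was 0.17 ± 0.05, adjusted p = 0.0519, an adjusted p that ran at 0.00746 to 0.204 over 18 alternatives.

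The receptors of these ligands read brightest in HF12. Ccr2 was dim, at 20.8 and 21.1 on the HF24 arrays and 9.1 and 17.3 on the C24 arrays, 22.0 and 28.2 on the HF12 arrays and 3.83 and 4.27 on the C12 arrays, and was well above background on both arrays of HF12 only. It was at least 1.32-fold higher in HF12 than in C12 (adjusted p = 0.0015), a direction fixed by the filter, which it passed only through HF12. Cx3cr1, the fractalkine receptor of macrophages, was bright in both high-fat groups and not well above background in either chow group. Its level was at least 26.0-fold higher in HF24 than in C24 and at least 64.2-fold higher in HF12 than in C12 (adjusted p = 1.63e-05 and 1.7e-06). Cx3cr1 passed the filter only through the high-fat groups, which fixed these directions.

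The inflammatory CC ligands Ccl3, Ccl4, Ccl5, Ccl6 and Ccl9, which draw macrophages, T cells and other leukocytes, were lowest on the C12 arrays in 4 of 5 genes, Ccl3, Ccl4, Ccl6 and Ccl9. Of 5 ligands, 4 were called higher and 1 lower between HF12 and C12 (all genes 13.6% and 17.4%). Between C24 and C12, 5 of 5 were called higher (all genes 23.9%). Between HF24 and C24 none was called higher and 2 lower (all genes 15.1% and 19.0%). Ccl3, an inflammatory product of macrophages, read 2982 and 3059 on the HF24 arrays, 3614 and 3513 on the C24 arrays, 2571 and 2686 on the HF12 arrays, and 505 and 459.7 on the C12 arrays. It was 5.46-fold higher in HF12 than in C12 (log2 2.45 ± 0.07, adjusted p = 4.43e-06) and 7.4-fold higher in C24 than in C12 (2.89 ± 0.07). Its neighbour and close relative Ccl4 read 3885 and 4161 on the HF24 arrays, 3927 and 3844 on the C24 arrays, 4452 and 4641 on the HF12 arrays, and 551 and 618 on the C12 arrays. Ccl4 was 7.79-fold higher in HF12 than in C12 (2.96 ± 0.08, adjusted p = 3.62e-06) and 6.66-fold higher in C24 than in C12 (2.73 ± 0.08). For both genes only the C12 arrays were low. The HF24 and C24 arrays overlapped for Ccl4 (0.05 ± 0.08, adjusted p = 0.654), a change that turned to −0.05 under normexp with quantile normalization and −0.02 under quantile normalization alone. The interactions were −2.69 ± 0.10 for Ccl3 and −2.91 ± 0.11 for Ccl4.

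At 24 weeks the diet change of Ccl3 was −0.24 ± 0.07, adjusted p = 0.04, which left the threshold without any 1 array of HF24, C24 or HF12 (0.0651 to 0.167) and ran at 0.00762 to 0.167 over 18 alternatives. Between HF24 and HF12 Ccl3 changed by 0.20 ± 0.07, adjusted p = 0.053 and passed at 0.0386 without either C12 array, in a range of 0.0249 to 0.202 over 18 alternatives. Ccl4 changed by −0.18 ± 0.08, adjusted p = 0.11. On the high-fat diet, then, neither ligand was called different between 24 and 12 weeks.

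Ccl6, a CCR1 ligand found in rodents, read 49886 and 48049 on the HF24 arrays, 68694 and 81084 on the C24 arrays, 77032 and 79383 on the HF12 arrays, and 11176 and 12310.2 on the C12 arrays. It was 6.67-fold higher in HF12 than in C12 (log2 2.74 ± 0.10, adjusted p = 1.1e-05) and 6.36-fold higher in C24 than in C12 (2.67 ± 0.10). It fell by 0.61 ± 0.10 with high-fat diet at 24 weeks and by 0.68 ± 0.10 between HF24 and HF12 (adjusted p = 0.0053 and 0.00273). Its interaction, −3.35 ± 0.14, was the most negative among the 23 ligands measured in every group. Ccl9, the adjacent gene and another CCR1 ligand, read 16269.6 and 15464 on the HF24 arrays, 16554 and 17857 on the C24 arrays, 27742 and 28013 on the HF12 arrays, and 11071 and 11451 on the C12 arrays. It rose by 1.31 ± 0.06 with high-fat diet at 12 weeks and its 24-week change was −0.12 ± 0.06, adjusted p = 0.213, with an interaction of −1.42 ± 0.09. Between 24 and 12 weeks Ccl9 rose on chow (0.61 ± 0.06) and fell on the high-fat diet (−0.81 ± 0.06).

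Ccl5, released by T cells and many other cells, was the exception in this group. It read 2031 and 1994 on the HF24 arrays, 2318 and 2084 on the C24 arrays, 739 and 822 on the HF12 arrays, and 1014 and 923 on the C12 arrays. It fell with high-fat diet at 12 weeks (−0.31 ± 0.09, adjusted p = 0.0447), a call that was lost without any 1 array of HF24, HF12 or C12 (0.0589 to 0.198) and ran at 0.0135 to 0.198 over 18 alternatives. It was higher after 24 weeks on both diets (1.18 ± 0.09 on chow, 1.37 ± 0.09 on the high-fat diet), and its interaction was 0.19 ± 0.13, adjusted p = 0.324. Ccr1 was well above background in HF12 only, at 20.4 and 19.6.

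Macrophage markers also changed between the groups. The sum of the 18 macrophage markers was 344581 to 351109 on the HF24 arrays and 173589 to 181158 on the C24 arrays, and 465050 to 469680 on the HF12 arrays and 75619 to 78115 on the C12 arrays. Of the 18, 17 were called higher and 0 lower between HF12 and C12, where 13.6% and 17.4% of all genes were, and 14 higher and 1 lower between HF24 and C24, where 15.1% and 19.0% were. Between C24 and C12, 16 were higher and 0 lower (all genes 23.9% and 22.2%), and between HF24 and HF12, 3 higher and 13 lower (22.5% and 24.4%). Cx3cr1 passed the filter only through the high-fat groups, which fixed the direction of its diet calls, and it was dim in both chow groups. Among markers measured in both groups, 16 of 17 were higher between HF12 and C12 and 15 of 17 between C24 and C12. Between HF24 and C24, 13 of 17 were higher and 1 lower. Adgre1, which encodes the macrophage surface protein F4/80, read 15344 and 15354 on the HF24 arrays and 8028 and 7509 on the C24 arrays, 20164 and 21970.0 on the HF12 arrays and 1780.5 and 1530.2 on the C12 arrays. The part of these markers in the ligand values was not tested, and in bulk RNA fewer cells of a type and less RNA per cell cannot be told apart. At 24 weeks the marker sum was higher in HF24 than in C24. Ccl12, Pf4 and Cxcl16 were called higher there, and none of Ccl3, Ccl6 and Ccl9 was. At 12 weeks the sum was higher in HF12 than in C12, and all of these ligands were called higher.

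**Figure D2:**
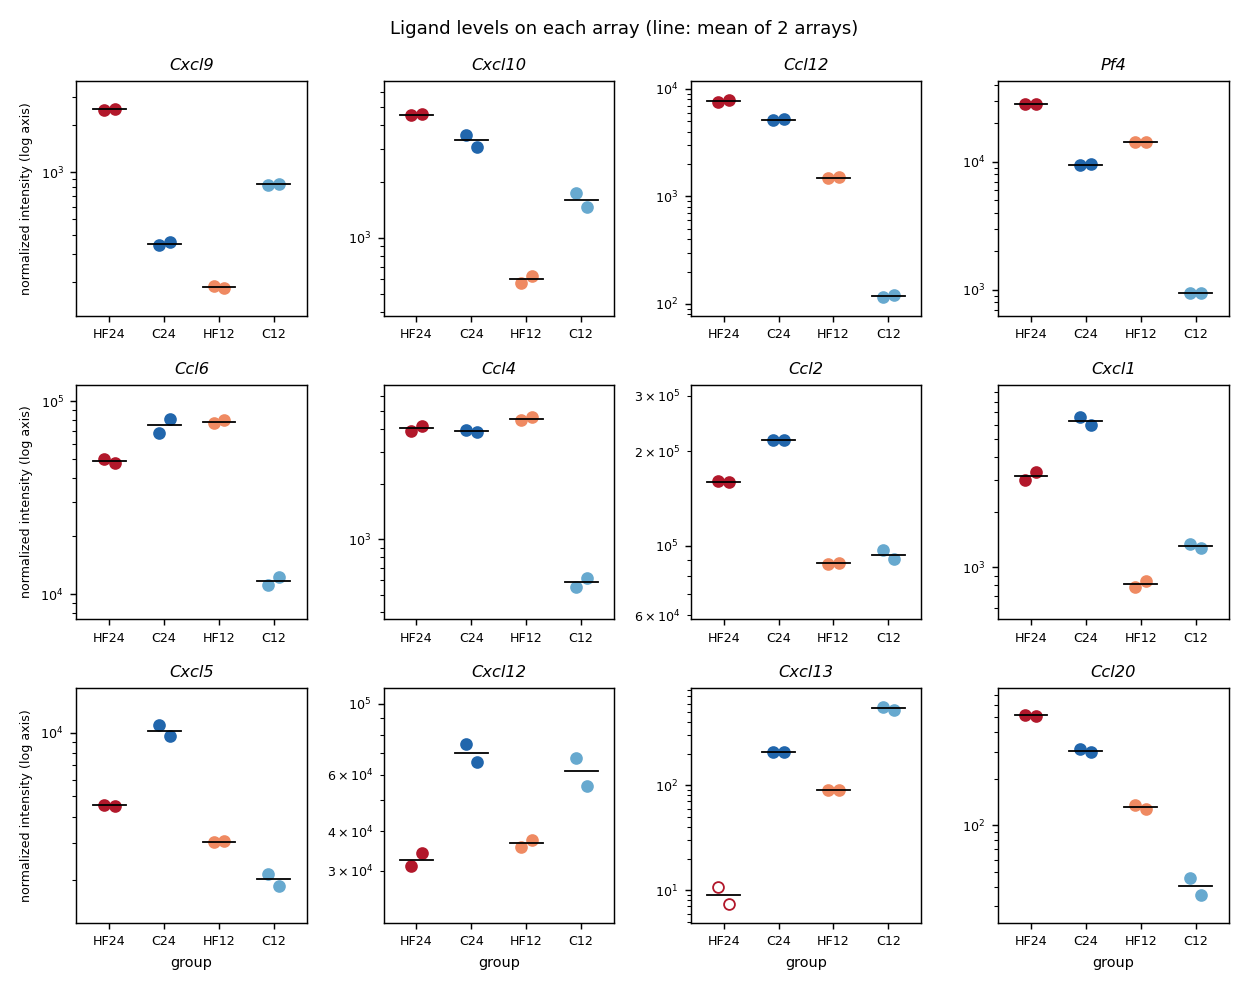
Normalized intensity (log axis) of 12 ligands on each array in HF24, C24, HF12 and C12; filled points are arrays well above background, open points are not, and lines are the mean of 2 arrays. Cxcl9 is highest in HF24 and lowest in HF12, while Ccl12, Pf4, Ccl6, Ccl4 and Ccl20 are lowest in C12.

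The ligands of CCR3, CCR4 and CCR8, which draw eosinophils, type 2 helper T cells and regulatory T cells, showed no shared direction. Ccl8, a CCR8 ligand in mice, read 137303 and 139660.0 on the HF24 arrays, 128434 and 131430.0 on the C24 arrays, 86619.5 and 92322 on the HF12 arrays, and 103807 and 103134 on the C12 arrays. It rose after 24 weeks on both diets (0.33 ± 0.06 on chow, 0.63 ± 0.06 on the high-fat diet), though on chow its adjusted p was 0.0566 under quantile normalization, the highest of 0.000332 to 0.0566 over 18 alternatives. With high-fat diet it fell at 12 weeks (−0.21 ± 0.06, adjusted p = 0.0379), and its 24-week change was 0.09 ± 0.06, adjusted p = 0.264. Both the 12-week call and the interaction (0.30 ± 0.08, adjusted p = 0.0372) were lost when any 1 of the 8 arrays was left out, with adjusted p of 0.061 to 0.17 and 0.0504 to 0.116. Over all alternatives they ran at 0.00507 to 0.17 over 18 alternatives and at 0.00713 to 0.116 over 17 alternatives. Ccl11, the eosinophil attractant eotaxin, read 14612 and 14506 on the HF24 arrays, 23180.2 and 23891 on the C24 arrays, 14842 and 15229.5 on the HF12 arrays, and 16353 and 16502 on the C12 arrays. Only the C24 arrays stood out, above all others. It fell by 0.69 ± 0.05 with high-fat diet at 24 weeks (adjusted p = 0.000405) and rose by 0.52 ± 0.05 between C24 and C12, with an interaction of −0.56 ± 0.07.

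The 3 dimmer ligands of the same group went different ways. Ccl24, another eotaxin, read 19.0 and 18.7 on the HF24 arrays, 47.5 and 62.5 on the C24 arrays, 135 and 129.8 on the HF12 arrays, and 74.5 and 98.7 on the C12 arrays. It was not well above background in HF24, where it was at least 1.65-fold lower than in C24 and at least 3.99-fold lower than in HF12. At 12 weeks it rose with high-fat diet (0.62 ± 0.17, adjusted p = 0.0403), and it fell between C24 and C12 (−0.65 ± 0.17, adjusted p = 0.0244). The first of these calls was lost without C12 replicate 1 or any 1 array of HF12 or HF24 (0.0598 to 0.164, in a range of 0.0108 to 0.164 over 17 alternatives). The second was lost without C12 replicate 2 or C24 replicate 1 (0.0955 to 0.099, in a range of 0.00683 to 0.099 over 17 alternatives). Ccl17, a CCR4 ligand, read 75.1 and 62.0 on the HF24 arrays, 45.8 and 50.6 on the C24 arrays, 66.3 and 56.3 on the HF12 arrays, and 74.3 and 74.1 on the C12 arrays. It rose with high-fat diet at 24 weeks (0.50 ± 0.12, adjusted p = 0.0256) and fell between C24 and C12 (−0.62 ± 0.12, adjusted p = 0.00852), with an interaction of 0.78 ± 0.18, adjusted p = 0.0204. Its 24-week call was lost without either C24 array or HF24 replicate 1 (0.0514 to 0.114, in a range of 0.0109 to 0.114 over 18 alternatives). Its interaction was lost without either C12 array, HF12 replicate 2 or C24 replicate 1 (0.0584 to 0.0621, in a range of 0.00925 to 0.0621 over 17 alternatives). Ccl1, a CCR8 ligand, was well above background in HF24 only, at 42.7 and 34.0, against 12.7 and 22.5 in C24, 3.54 and 4.17 in HF12 and 3.86 and 4.29 in C12. Ccl1 passed the filter only through HF24, which fixed the direction of its changes there. It was at least 1.35-fold higher in HF24 than in C24 (adjusted p = 0.0217) and at least 2.13-fold higher than in HF12 (0.000385). The first of these was lost without HF24 replicate 1 (0.0925), and with all dim values set to a common floor neither passed, over ranges of 0.00242 to 0.309 over 17 alternatives and 0.000182 to 0.283 over 17 alternatives. Among the receptors, Ccr3 rose with high-fat diet at both times (1.31 ± 0.10 at 24 weeks, 2.60 ± 0.10 at 12 weeks), and Ccr8 was not called in any comparison, reading 64.2 to 95.3 over the 8 arrays.

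The CXCR2 ligands, which draw neutrophils and are made by stromal cells under cytokine stimulation, included Cxcl1 and Cxcl5, which were measured in every group and rose with time on both diets. Cxcl2 and Cxcl3 passed the filter only through the 24-week groups, so their higher levels there were fixed by the filter. Cxcl1, Cxcl2 and Cxcl3 lie near each other on chromosome 5, and the 250 bases before each start site (RefSeq, build GRCm38.p6, plus strand) are shown because these neighbouring genes share a motif. They lie at chr5:90890995-90891244, chr5:90903649-90903898 and chr5:90785851-90786100. Capitals mark matches to the κB motif, the site of NF-κB factors, searched on both strands.
Cxcl1: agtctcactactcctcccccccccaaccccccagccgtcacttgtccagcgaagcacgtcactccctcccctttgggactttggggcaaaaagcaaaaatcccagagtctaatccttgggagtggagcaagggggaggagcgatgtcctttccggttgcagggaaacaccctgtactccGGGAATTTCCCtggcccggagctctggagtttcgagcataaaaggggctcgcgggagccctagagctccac
Cxcl2: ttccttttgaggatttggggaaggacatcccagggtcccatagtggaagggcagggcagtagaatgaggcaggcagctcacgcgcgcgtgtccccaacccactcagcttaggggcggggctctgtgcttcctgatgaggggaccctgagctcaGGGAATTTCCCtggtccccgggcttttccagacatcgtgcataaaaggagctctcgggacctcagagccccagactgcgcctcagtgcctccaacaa
Cxcl3: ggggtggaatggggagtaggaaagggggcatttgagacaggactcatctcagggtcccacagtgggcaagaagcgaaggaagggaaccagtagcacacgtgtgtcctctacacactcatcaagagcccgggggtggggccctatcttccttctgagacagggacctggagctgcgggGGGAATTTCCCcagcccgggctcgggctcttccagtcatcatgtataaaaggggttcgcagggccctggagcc
In each window the 11 bases in capitals are the same and hold 2 matches shifted by 1 base, and the first base lies at −71 from the start in Cxcl1, −97 in Cxcl2 and −73 in Cxcl3. The κB motif was found in 7 of the 25 ligands that have a window in the table (Ccl1, Ccl9, Ccl20, Cxcl1, Cxcl2, Cxcl3 and Cxcl10) and in 7.25% of all 32851 windows. The members were not picked at random and lie in families, so the shares are a description, and a match is not a site shown to be used.

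Cxcl1, the main neutrophil attractant of mouse stroma, read 2989 and 3320.1 on the HF24 arrays, 6623 and 5998 on the C24 arrays, 782 and 839.6 on the HF12 arrays, and 1335 and 1279.7 on the C12 arrays. The 24-week arrays were all above the 12-week arrays, and within each time the chow arrays were above the high-fat arrays. It was 4.82-fold higher in C24 than in C12 (log2 2.27 ± 0.09, adjusted p = 1.83e-05) and 3.89-fold higher in HF24 than in HF12 (1.96 ± 0.09, adjusted p = 3.74e-05). It fell by 1.00 ± 0.09 with high-fat diet at 24 weeks (adjusted p = 0.000589) and by 0.69 ± 0.09 at 12 weeks (0.00215), with an interaction of −0.31 ± 0.12, adjusted p = 0.108 (range 0.019 to 0.267 over 17 alternatives). Cxcl5, whose protein binds CXCR2 on neutrophils, read 4534 and 4520.3 on the HF24 arrays, 10864 and 9629 on the C24 arrays, 3027 and 3057 on the HF12 arrays, and 2150.0 and 1887 on the C12 arrays. It rose with high-fat diet at 12 weeks (0.59 ± 0.09, adjusted p = 0.00469) and fell at 24 weeks (−1.18 ± 0.09, 0.000418). The 2 diet changes differed by −1.77 ± 0.13 (interaction, adjusted p = 0.000361). It rose with time by 2.34 ± 0.09 on chow and 0.57 ± 0.09 on the high-fat diet.

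Cxcl2 and Cxcl3, close relatives of Cxcl1, were well above background only after 24 weeks. Cxcl2 read 72.1 and 69.2 on the HF24 arrays, 59.1 and 70.1 on the C24 arrays, 4.74 and 4.09 on the HF12 arrays, and 8.24 and 12.0 on the C12 arrays. It was at least 3.4-fold higher in C24 than in C12 and at least 3.96-fold higher in HF24 than in HF12 (adjusted p = 0.000162 and 5.27e-05). Cxcl3 read 52.2 and 51.9 in HF24 and 42.1 and 45.1 in C24, 3.41 and 4.02 in HF12 and 3.72 and 4.12 in C12. Its level was at least 2.3-fold higher in C24 than in C12 and at least 2.92-fold higher in HF24 than in HF12 (adjusted p = 8.07e-06 and 8.38e-06). The diet changes at 24 weeks were 0.13 ± 0.19, adjusted p = 0.623 for Cxcl2 and 0.26 ± 0.10, adjusted p = 0.0973 for Cxcl3. Their ranges were 0.0334 to 0.978 over 17 alternatives and 0.00284 to 0.592 over 17 alternatives, with Cxcl2 called under normexp with quantile normalization and Cxcl3 under quantile normalization and with a common floor. Cxcr2, their receptor, was well above background on no array, and neither were the ligands Cxcl15 and Ppbp. Of 7 neutrophil markers with a probe, Cxcr2 and Retnlg were dim throughout, while S100a8, Csf3r, Mpo and Elane were well above background on all 8 arrays. Of the 5 tested, 4 were called higher and 1, Csf3r, lower between HF24 and C24, where Cxcl1 and Cxcl5 fell and 15.1% and 19.0% of all genes were called, and 2 higher and 0 lower between HF12 and C12 (all genes 13.6% and 17.4%). Their part in the ligand values was not tested. The calprotectin gene S100a9, also a neutrophil marker, read 1131 and 1068 in HF24 and was well above background on no array of the other groups. It passed the filter only through HF24, which fixed the direction of its call between HF24 and C24.

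The interferon-induced CXCR3 ligands, which draw activated T cells and natural killer cells, fell with high-fat diet at 12 weeks and rose at 24 weeks. Cxcl9, a gene that depends mainly on interferon gamma, read 2491 and 2525 on the HF24 arrays, 342 and 358 on the C24 arrays, 188 and 184 on the HF12 arrays, and 833 and 845 on the C12 arrays. The HF24 arrays were the highest and the HF12 arrays the lowest, and no groups overlapped. With high-fat diet it was 7.16-fold higher at 24 weeks (log2 2.84 ± 0.05, adjusted p = 3.01e-05) and 4.52-fold lower at 12 weeks (−2.18 ± 0.05, adjusted p = 3.25e-06). The interaction, 5.02 ± 0.08, adjusted p = 3.22e-05, was the most positive among the 23 ligands measured in every group. Cxcl9 was 13.5-fold higher in HF24 than in HF12 and 2.4-fold lower in C24 than in C12 (3.76 ± 0.05 and −1.26 ± 0.05).

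Cxcl10, which is induced by both kinds of interferon and by NF-κB, read 4527 and 4601 on the HF24 arrays, 3561 and 3071 on the C24 arrays, 575 and 627 on the HF12 arrays, and 1742 and 1461 on the C12 arrays. With high-fat diet it rose at 24 weeks (0.46 ± 0.11, adjusted p = 0.0256) and fell at 12 weeks (−1.41 ± 0.11, adjusted p = 0.00037), with an interaction of 1.88 ± 0.16, adjusted p = 0.000702. The 24-week call was lost without C24 replicate 2 or either HF24 array (0.0846 to 0.105), in a range of 0.00429 to 0.105 over 18 alternatives. It rose with time on both diets, by 2.93 ± 0.11 on the high-fat diet and 1.05 ± 0.11 on chow. On chow Cxcl9 and Cxcl10 therefore moved in opposite directions with time. The 250 bases before the start of Cxcl10 (chr5:92348890-92349139, minus strand, RefSeq, GRCm38.p6) are shown because they hold both kinds of motif. Capitals mark 1 match to the interferon-stimulated response element, followed by the κB matches, of which the last 2 overlap.
Cxcl10: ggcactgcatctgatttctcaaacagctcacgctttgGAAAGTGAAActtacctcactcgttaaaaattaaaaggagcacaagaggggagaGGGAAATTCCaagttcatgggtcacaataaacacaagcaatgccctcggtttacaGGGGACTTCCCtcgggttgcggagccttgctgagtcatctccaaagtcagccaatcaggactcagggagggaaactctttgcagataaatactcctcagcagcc
The response element was searched as TTTC, 2 bases of any kind and TTTC again, on both strands. Its match lies at −213 from the start, and the κB matches at −159, −104 and −103. The element was also found before Ccl19 and Cxcl14, and in 2.98% of all windows. The window of Cxcl9 held no match to it, to the κB motif or to the interferon gamma activated site, searched as TTCNNNGAA, which says only that these letters are not in those 250 bases. That last motif was found before Ccl17 and Cxcl14, and in 7.02% of all windows.

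Genes of the interferon pathway did not all change with diet as Cxcl9 did. Ifng itself was well above background in HF24 only, at 78.6 and 90.9, against 6.14 and 5.2 in C24, 3.29 and 5.02 in HF12 and 6.22 and 3.96 in C12. It was at least 3.0-fold higher in HF24 than in C24 (adjusted p = 0.000352), but it passed the filter only through HF24, which fixed this direction. At 12 weeks Ifng was dim in both groups, so no diet change is given there. Irf1, a transcription factor induced by interferon gamma, rose with high-fat diet at 24 weeks and fell at 12 weeks, as Cxcl9 did (1.25 ± 0.08 and −0.30 ± 0.08). The type I interferon factor Irf7 fell with high-fat diet at both times (−1.24 ± 0.07 and −1.17 ± 0.07). The part of these genes in the Cxcl9 and Cxcl10 values was not tested.

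Of 10 tested lymphocyte markers, 4 were called higher and 0 lower between HF24 and C24, where 15.1% and 19.0% of all genes were. Between HF12 and C12, where Cxcl9 fell, 1 was higher and 1 lower (all genes 13.6% and 17.4%), and between C24 and C12, where Cxcl9 also fell, 5 were higher and 0 lower (23.9% and 22.2%). Between HF24 and HF12, 4 were higher and 0 lower (22.5% and 24.4%). Among markers measured in both groups, 4 of 8 were called higher between HF24 and C24 and 0 of 6 between HF12 and C12. These 4 include Nkg7, which passed the filter only through HF24, so the filter favoured its higher call. The count was 2 of 6 both between C24 and C12 and between HF24 and HF12, and 0 were lower in any comparison. The lower call between HF12 and C12, Gzmb, was not well above background in either group. Nkg7, a cytotoxic granule gene, read 228 and 232 in HF24, against 33.5 and 35.1 in C24, with 1 of the C24 arrays well above background, 19.8 and 19.6 in HF12 and 23.0 and 16.3 in C12. The sum of all 13 lymphocyte markers, untested ones included, was 5008 to 5136 on the HF24 arrays and 4404 to 4576 on the C24 arrays, and 3793 to 4303 on the HF12 arrays and 3772 to 4171 on the C12 arrays. Cd3g, Cd8a and Ms4a1 were well above background on both arrays of no group. Cxcr3, the receptor, read 104 and 98.8 on the HF24 arrays, 69.2 and 50.4 on the C24 arrays, 143 and 169.5 on the HF12 arrays, and 32.3 and 12.2 on the C12 arrays, and its 24-week diet change was 0.78 ± 0.44, adjusted p = 0.224. The part of these cells in the Cxcl9 and Cxcl10 values was not tested.

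**Figure D3:**
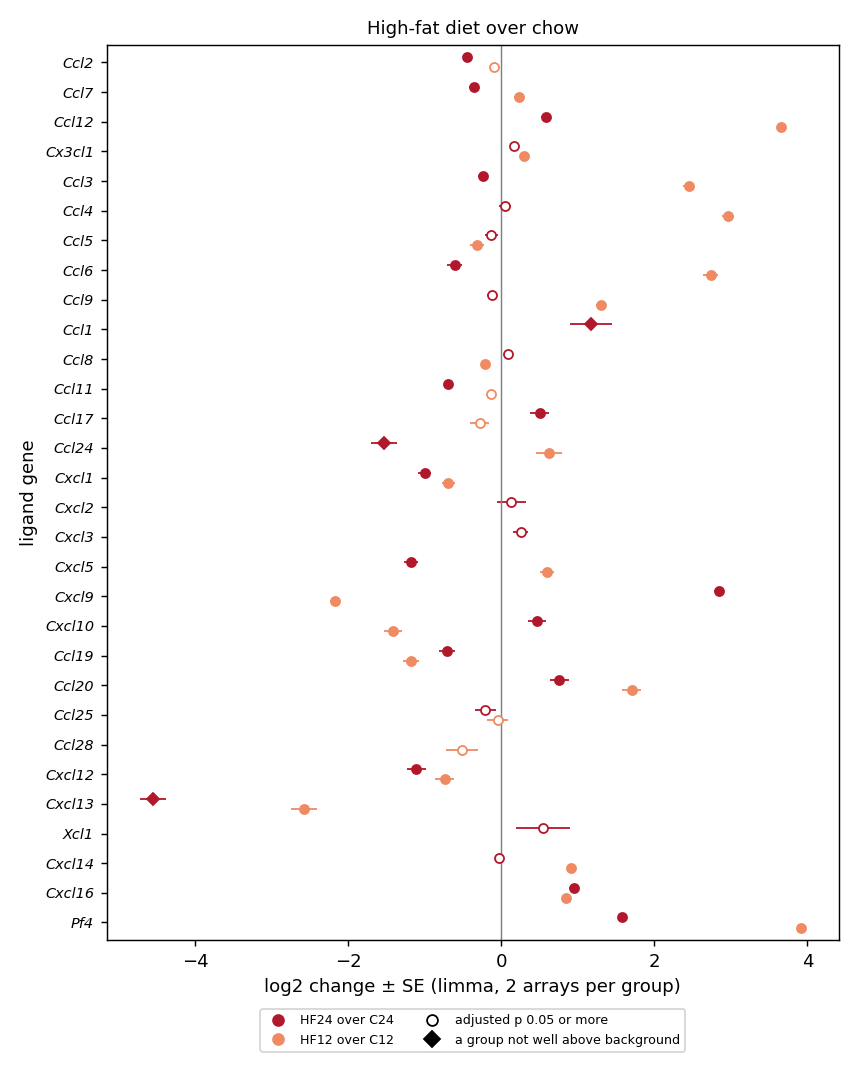
Log2 change ± standard error with high-fat diet over chow for the tested ligands, at 24 weeks (dark red) and 12 weeks (orange); open symbols have an adjusted p of 0.05 or more, diamonds mark a group not well above background, and pairs dim in both groups are left out. Cxcl9 and Cxcl10 lie right of 0 at 24 weeks and left of it at 12 weeks, while Ccl6 and Cxcl5 do the opposite.

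The lymphoid and homeostatic ligands, which place lymphocytes and progenitors in tissues, held Cxcl13, the ligand with the most negative diet change among the tested ligands at both times. This B cell attractant read 10.7 and 7.37 on the HF24 arrays, 209 and 207 on the C24 arrays, 90.2 and 90.4 on the HF12 arrays, and 561 and 516 on the C12 arrays. It was not well above background in HF24, where it was at least 6.29-fold lower than in C24 and at least 2.73-fold lower than in HF12 (adjusted p = 6.8e-05 and 6.53e-05). At 12 weeks it was 5.96-fold lower with high-fat diet (log2 −2.58 ± 0.17, adjusted p = 0.000151), and it was 2.59-fold lower in C24 than in C12 (−1.37 ± 0.17). Its receptor Cxcr5 was well above background on no array. Ccl19, which draws T cells and dendritic cells through CCR7, read 145 and 142 on the HF24 arrays, 224 and 246 on the C24 arrays, 119 and 110.5 on the HF12 arrays, and 238 and 282 on the C12 arrays. It fell with high-fat diet by 0.71 ± 0.10 at 24 weeks and by 1.18 ± 0.10 at 12 weeks (adjusted p = 0.00353 and 0.000469). Between HF24 and HF12 it rose by 0.32 ± 0.10, adjusted p = 0.0418, a call lost without any 1 array of HF24, C24 or HF12 (0.052 to 0.171, in a range of 0.00636 to 0.171 over 18 alternatives). Its interaction was 0.47 ± 0.14, adjusted p = 0.0554 and passed without C12 replicate 1 (0.0266), in a range of 0.0174 to 0.151 over 17 alternatives.

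Cxcl12, the stromal ligand that holds progenitors and lymphocytes through CXCR4, was measured by 2 probes to different transcripts that did not behave alike. The brighter probe read 31023 and 34076 on the HF24 arrays, 74651 and 65771 on the C24 arrays, 35662 and 37571 on the HF12 arrays, and 67548 and 55332 on the C12 arrays. By it Cxcl12 fell with high-fat diet by 1.11 ± 0.12 at 24 weeks (adjusted p = 0.00129) and by 0.74 ± 0.12 at 12 weeks (0.00617), with no call between the times. The other probe read 44393 and 44969.6 on the HF24 arrays, 54489 and 56028 on the C24 arrays, 25049.5 and 25572 on the HF12 arrays, and 28867 and 29837 on the C12 arrays. By that probe the diet change was −0.31 at 24 weeks, which was called, and −0.21 at 12 weeks (adjusted p = 0.0789), and the gene rose by 0.91 between C24 and C12 and by 0.82 between HF24 and HF12. With that probe among the alternatives, the adjusted p ran at 0.000253 to 0.0789 over 19 alternatives for the 12-week diet change and 0.000924 to 0.635 over 19 alternatives between HF24 and HF12. Both probes gave a lower level with high-fat diet at 24 weeks. Its receptor Cxcr4 rose in all 4 comparisons and read 1451 and 1418 on the HF24 arrays, 525 and 627 on the C24 arrays, 530.2 and 479.9 on the HF12 arrays, and 285 and 288 on the C12 arrays. Ackr3, which binds and removes Cxcl12, rose with high-fat diet at 24 weeks (0.74 ± 0.07) and fell at 12 weeks (−0.96 ± 0.07), reading 6348 and 6533 on the HF24 arrays, 3976 and 3713 on the C24 arrays, 808 and 880.1 on the HF12 arrays, and 1637 and 1654 on the C12 arrays.

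Ccl20, the CCR6 ligand induced by NF-κB, went the other way and rose in all 4 comparisons. It read 514 and 513 on the HF24 arrays, 311 and 296 on the C24 arrays, 135 and 127 on the HF12 arrays, and 45.7 and 35.3 on the C12 arrays. With high-fat diet it was 1.69-fold higher at 24 weeks (0.76 ± 0.12, adjusted p = 0.00586) and 3.27-fold higher at 12 weeks (1.71 ± 0.12, adjusted p = 0.000228). With time it rose by 2.92 ± 0.12 on chow and 1.97 ± 0.12 on the high-fat diet. Its interaction, −0.95 ± 0.17, adjusted p = 0.0105, shrank to −0.14 (adjusted p = 0.259) under normexp with quantile normalization, where its 12-week diet change was 0.83, and the range was 0.00271 to 0.259 over 17 alternatives. Ccr6, its receptor, was well above background in C24 only, at 38.7 and 41.9 against 13.4 and 15.3 in HF24, and was at least 1.22-fold lower in HF24 than in C24. Ccr6 passed the filter only through C24, which fixed this direction.

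The remaining ligands of this group changed less or were close to background. Ccl25, a CCR9 ligand of thymus and gut, read 1055 to 1382 over the 8 arrays and was called in no comparison, with changes between −0.21 and 0.03. Ccl28, a mucosal ligand of CCR10, read 22.0 and 24.3 on the HF24 arrays, 24.2 and 24.1 on the C24 arrays, 24.8 and 39.8 on the HF12 arrays, and 46.3 and 43.5 on the C12 arrays and was not well above background at 24 weeks. Its level was at least 1.59-fold lower in C24 than in C12 (adjusted p = 0.0162), a call lost without any 1 array of C24 or C12 (0.0571 to 0.0778, in a range of 0.00138 to 0.0778 over 17 alternatives). Its 12-week diet change was −0.51 ± 0.21, adjusted p = 0.12 but 0.00542 without HF12 replicate 2, in a range of 0.00542 to 0.325 over 17 alternatives. Between HF24 and HF12 its adjusted p was 0.137, and 0.00605 without HF12 replicate 1, in a range of 0.00605 to 0.456 over 17 alternatives. Xcl1, a ligand of cross-presenting dendritic cells made by T and natural killer cells, read 91.5 and 96.5 on the HF24 arrays, 45.1 and 92.4 on the C24 arrays, 3.92 and 5.85 on the HF12 arrays, and 4.2 and 4.69 on the C12 arrays. It was at least 3.41-fold higher in C24 than in C12 and at least 5.27-fold higher in HF24 than in HF12 (adjusted p = 0.000442 and 0.000365). On chow it missed the threshold at 0.0927 with a common floor, the highest of 2.88e-05 to 0.0927 over 17 alternatives. Its 24-week diet change was 0.54 ± 0.35, adjusted p = 0.284, and 0.0325 without C24 replicate 2, whose level of 92.4 lay within the HF24 range, in a range of 0.0325 to 0.953 over 17 alternatives.

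Of the ligands outside these groups, Pf4 changed the most. Platelet factor 4 is stored in platelet granules, and the gene is also known from mouse macrophages. Pf4 read 28431 and 28052 on the HF24 arrays, 9385 and 9559 on the C24 arrays, 14371 and 14312 on the HF12 arrays, and 948 and 945 on the C12 arrays. With high-fat diet it was 2.98-fold higher at 24 weeks (log2 1.58 ± 0.05, adjusted p = 5.13e-05) and 15.2-fold higher at 12 weeks (3.92 ± 0.05, adjusted p = 1.7e-06). It was 10.0-fold higher in C24 than in C12 and 1.97-fold higher in HF24 than in HF12, and its interaction was −2.35 ± 0.07. No groups overlapped. Other platelet and megakaryocyte genes were at or near background: Ppbp, Gp1ba, Gp5 and Gp9 were well above background on no array, and Itga2b read 13.2 to 27.2.

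Cxcl16, which is made as a membrane protein and also takes up oxidised lipids, was called with diet at both times and, by its brighter probe, in neither comparison of times. It read 4663 and 4596 on the HF24 arrays, 2333 and 2466 on the C24 arrays, 4131 and 4223 on the HF12 arrays, and 2286 and 2361 on the C12 arrays. It rose with high-fat diet at 24 weeks (0.95 ± 0.06, adjusted p = 0.000211) and at 12 weeks (0.85 ± 0.06, adjusted p = 0.000168), and the high-fat arrays were all above the chow arrays. Its changes between 24 and 12 weeks were 0.05 ± 0.06, adjusted p = 0.554 on chow and 0.15 ± 0.06, adjusted p = 0.0789 on the high-fat diet. A dimmer probe of the gene gave 1.29 and 1.24 for the diet changes, and 0.37 and 0.42 for the time changes, both of which it called (ranges 0.0136 to 0.96 over 19 alternatives and 0.00511 to 0.583 over 19 alternatives). Its receptor Cxcr6 was called higher between C24 and C12 only (0.56 ± 0.13). Cxcl14, a ligand made by fibroblasts and epithelium, read 58172 and 55534 on the HF24 arrays, 58272 and 57791 on the C24 arrays, 27758 and 27529.7 on the HF12 arrays, and 15008 and 14408 on the C12 arrays. It rose with high-fat diet at 12 weeks (0.91 ± 0.06, adjusted p = 0.000111) and with time on both diets (1.98 ± 0.06 on chow, 1.04 ± 0.06 on the high-fat diet). Its 24-week diet change was −0.03 ± 0.06, adjusted p = 0.709, with overlapping arrays, and its interaction −0.94 ± 0.08.

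**Figure D4:**
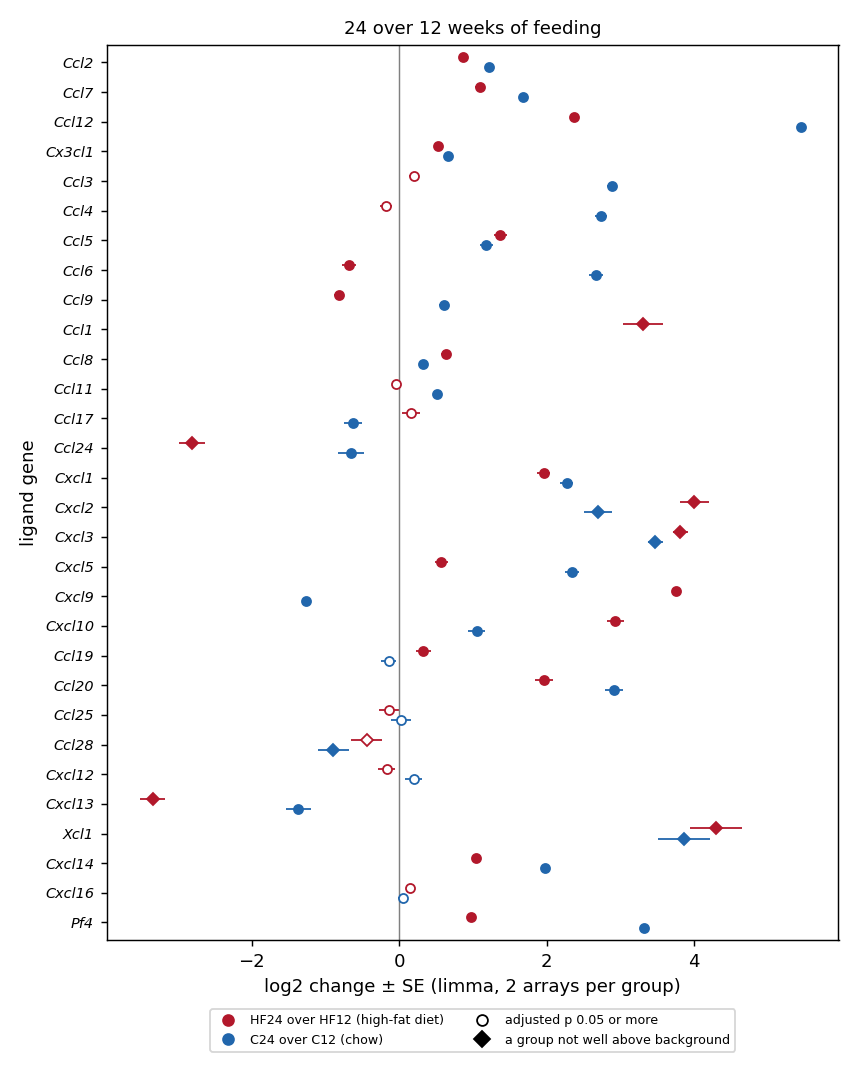
Log2 change ± standard error between 24 and 12 weeks of feeding for the tested ligands, on the high-fat diet (red) and on chow (blue); open symbols have an adjusted p of 0.05 or more and diamonds mark a group not well above background. Most ligands lie right of 0 on both diets, Cxcl13 and Ccl24 lie left on both, and Ccl6, Ccl9 and Cxcl9 lie on opposite sides.

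Some neighbouring ligand genes changed alike and others did not, and no test of neighbourhood was made. On chromosome 11 the ligands follow each other in the order Ccl2, Ccl7, Ccl11, Ccl12, Ccl8 and Ccl1, and further along Ccl5, Ccl9, Ccl6, Ccl3 and Ccl4. With high-fat diet at 12 weeks the log2 changes along the first 5 were −0.09, 0.23, −0.13, 3.66 and −0.21, so Ccl12 stood alone between neighbours that changed little. Along the second stretch they were −0.31, 1.31, 2.74, 2.45 and 2.96, of which the last 4 were all called higher (all genes 13.6%). Those 4 were also called higher between C24 and C12 (all genes 23.9%) and had called negative interactions (all genes 16.0%). On chromosome 5, Cxcl9 and Cxcl10 are adjacent, and Pf4 lies beside Cxcl3. Pf4 rose by 3.92 in HF12 over C12, where Cxcl3 was not well above background.

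Of 18 chemokine receptor genes, 12 were tested, and 9 of these were called higher and 0 lower between HF12 and C12, where 13.6% and 17.4% of all genes were. Ccr1, Ccr2 and Cx3cr1 passed the filter only through high-fat groups, so the direction of their calls was fixed by it. Among the 8 receptors measured in both groups, 6 were called higher and 0 lower. These 6 include Ccr9, which also passed the filter only through HF12, so the filter favoured its higher call. Between HF24 and C24, 4 of the 12 (33.3%) were higher and 2 (16.7%) lower, beside 15.1% and 19.0% of all genes. Between C24 and C12, 10 were higher and 0 lower (all genes 23.9% and 22.2%), though 3 of these were not well above background in either group. Between HF24 and HF12, 2 were higher and 4 lower (22.5% and 24.4%), of which 1 was not well above background in either group. Among receptors measured in both groups, 3 of 7 were called higher and 1 lower between HF24 and C24. The same counts were 6 of 7 higher and 0 lower between C24 and C12, and 1 of 8 higher and 3 lower between HF24 and HF12. Among the atypical receptors, which bind chemokines without signalling for migration, Ackr2 fell with high-fat diet at 12 weeks (−1.81 ± 0.15) and Ackr1 fell at both times (−0.70 ± 0.11 at 24 weeks, −0.89 ± 0.11 at 12 weeks). Ccrl2, which presents chemerin, rose at both times (0.40 ± 0.08 and 1.62 ± 0.08).

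Among 21 tested genes for cytokines that induce chemokines and for their regulators, 12 were called higher and 1 lower between C24 and C12 (57.1% and 4.76%, against 23.9% and 22.2% of all genes), and 17 higher and 0 lower between HF24 and HF12 (81.0% higher, against 22.5%). Between HF24 and C24, 5 were higher and 3 lower (23.8% and 14.3%), near the 15.1% and 19.0% of all genes. Between HF12 and C12, 4 were higher and 7 lower (19.0% and 33.3%, against 13.6% and 17.4%). Some of these genes, such as Ifng, passed the filter only through 1 group, which favoured calls that set that group higher. Of the 18 genes measured in both groups, 11 were called higher and 1 lower between C24 and C12. Between HF24 and HF12, 15 of 18 were higher and 0 lower. The same counts were 4 of 19 higher and 3 lower between HF24 and C24. Between HF12 and C12 they were 3 of 18 higher and 7 lower. Tnf, which drives NF-κB in stromal cells, read 1150.0 and 1082 on the HF24 arrays, 633 and 723 on the C24 arrays, 410.3 and 384 on the HF12 arrays, and 49.7 and 47.8 on the C12 arrays. It rose in all 4 comparisons, by 3.03 ± 0.08 with high-fat diet at 12 weeks and 0.72 ± 0.08 at 24 weeks. Il6, a cytokine of stimulated fibroblasts, read 10489 and 11178 on the HF24 arrays, 18199 and 18536 on the C24 arrays, 3224 and 3449 on the HF12 arrays, and 5084 and 4326 on the C12 arrays. Like Cxcl1, it rose with time (1.97 ± 0.09 on chow, 1.70 ± 0.09 on the high-fat diet) and fell with high-fat diet (−0.76 ± 0.09 at 24 weeks, −0.49 ± 0.09 at 12 weeks). The NF-κB cofactor gene Nfkbiz rose with time by 1.87 ± 0.07 on chow and 1.53 ± 0.07 on the high-fat diet. The NF-κB brake Tnfaip3 rose by 1.86 ± 0.08 between C24 and C12.

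All 9 listed proteases that trim or release chemokines were tested. Dpp4, a peptidase that clips the amino end of Cxcl12, Cxcl10 and others, read 349 and 364 on the HF24 arrays, 569 and 598 on the C24 arrays, 247 and 246 on the HF12 arrays, and 1026 and 1026 on the C12 arrays. It fell with high-fat diet at both times (−0.71 ± 0.06, adjusted p = 0.000469 at 24 weeks, −2.06 ± 0.06, adjusted p = 4.37e-06 at 12 weeks). Mmp12, the macrophage elastase, which cuts several chemokines, rose with high-fat diet at both times (0.46 ± 0.08 and 2.83 ± 0.08) and fell between HF24 and HF12 (−1.38 ± 0.08). Adam10, which sheds Cx3cl1 and Cxcl16 from the membrane, was called in no comparison, with log2 changes between −0.03 and 0.21. In all, 3 of the 9 were called higher and 3 lower between HF12 and C12 (33.3% each, against 13.6% and 17.4% of all genes). Between HF24 and C24, 2 were higher and 1 lower (22.2% and 11.1%), near the 15.1% and 19.0% of all genes.

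Markers of other cell types moved too. The sum of 9 mature adipocyte markers was 94232 to 97413 on the HF24 arrays and 129369 to 132008 on the C24 arrays, and 219176 to 233052 on the HF12 arrays and 918157 to 932083 on the C12 arrays. The sum of 8 endothelial markers was 30638 to 31410 on the HF24 arrays and 20955 to 21788 on the C24 arrays, and 11370 to 11399 on the HF12 arrays and 12241 to 12308 on the C12 arrays. The adipocyte sum was thus highest in C12, although the marker Lep read lowest there. The endothelial sum was higher after 24 weeks, although the marker Tek was called lower between C24 and C12. The sum of 6 skeletal muscle markers was 19468 to 20009 on the HF24 arrays and 51193 to 51731 on the C24 arrays, and 99016 to 103247 on the HF12 arrays and 131317 to 139287 on the C12 arrays. All 6 were called lower between 24 and 12 weeks on both diets and between HF24 and C24. Of all genes, 22.2% were called lower between C24 and C12 and 24.4% between HF24 and HF12. The keratinocyte sum was highest in C24, and 4 of 5 tested keratinocyte markers were called lower between HF24 and C24. Among the 4 measured in both groups, 3 were called lower. The other call was for a marker that passed the filter only through C24, which fixed its direction. Krt14, a keratin of the basal epidermis, read 261 and 281 on the HF24 arrays, 2613 and 2556 on the C24 arrays, 83.3 and 71.8 on the HF12 arrays, and 43.9 and 67.9 on the C12 arrays. The sum of the 7 keratinocyte markers was 3425 to 3846 on the HF24 arrays and 8233 to 8339 on the C24 arrays, and 4231 to 4262 on the HF12 arrays and 4211 to 4389 on the C12 arrays. All 3 tested mesothelial markers were called lower between HF24 and C24, and 2 were higher and 0 lower between HF12 and C12. Of 5 tested dendritic cell markers, 1 was called higher and 2 lower between HF24 and C24, and 2 higher and 0 lower between HF12 and C12. Over all genes, 15.1% were called higher and 19.0% lower between HF24 and C24, and 13.6% and 17.4% between HF12 and C12. The part of these cell types in the ligand values was not tested.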

How the data were processed

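Total RNA of 8 samples, 2 in each of 4 groups given by the labels, was measured on one-colour Agilent mouse arrays. Per the file headers, Agilent Feature Extraction 11.0.1.1 made the deposited processed intensity, a background-subtracted and detrended spot brightness that was not scaled across arrays. Median and local background intensities were deposited as scanned. The authors' value table holds log2 values for 38475 probes, of which 38346 were found in the scanner output. A column differed from log2 processed intensity by a single constant; the rule behind the constant is not given in the sources used here.

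Of 56605 probes that were not controls, 192 without an unflagged spot on every array were left out. Spots of a probe were averaged, and log2 values were set relative to the array's 75th percentile. Transcript identifiers were matched to RefSeq gene names (GRCm38.p6), which gave 1 symbol to 32907 probes (58.3%). The headers name build mm9, so coordinates are given only for the RefSeq promoter windows. A gene was represented by its brightest probe and tested where that probe was well above background throughout 1 or more groups, which gave 29577 genes or unnamed features. All 8 arrays entered a single group-means model in limma 3.58.1 under R 4.3.3 (4 residual and 1.9 prior degrees of freedom), with two-sided tests and Benjamini-Hochberg adjustment within each comparison. The fit was tested on simulated data. Tables were made in Python 3.11.15 (pandas 2.3.3) and plots in matplotlib 3.10.9.

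The ligands, the pathway and marker lists, the tests and the alternatives were chosen with earlier results of these data known. Every ligand may be named, with up to 6 called genes per pathway list and comparison by smallest p, the receptors of ligands described, and any marker. Alternatives were normexp (offset 50) with quantile normalization, quantile normalization alone, the authors' value table, dim probes kept, a filter for all arrays, every kept probe, the second brightest probe, a variance trend with intensity, fits of the compared groups alone, the replicate number as a block, and each array left out. A common floor for dim values was added after seeing the data. Normexp used the median intensity, since the files used here hold no mean signal. Promoter windows are the 250 bases before a start, and 25 ligands had one. As a check on pairing, deviations of same-numbered arrays from their group means correlated between −0.08 and 0.17, so the replicate numbers were not taken as pairs. Some genes of the pathway lists are counted but not reported here by name.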

Additional observations from a re-analysis of the deposited data

Results flagged for a closer look

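Of the 23 ligands measured in every group, 16 had a diet change that differed between 24 and 12 weeks by the interaction test in limma. Over all genes tested, 13.9% of interactions were called positive and 16.0% negative. The values below are the log2 diet change at 24 weeks minus that at 12 weeks. Monocyte-receptor ligands were Ccl2 (−0.35), Ccl7 (−0.59) and Ccl12 (−3.08). Inflammatory CC ligands with a negative difference were Ccl3 (−2.69), Ccl4 (−2.91), Ccl6 (−3.35) and Ccl9 (−1.42). Among the ligands of CCR3, CCR4 and CCR8 the difference was 0.3 for Ccl8, −0.56 for Ccl11 and 0.78 for Ccl17. The neutrophil attractant Cxcl5 had −1.77. The T cell attractants Cxcl9 (5.02) and Cxcl10 (1.88) had positive differences. For the others the difference was −0.95 for Ccl20, −0.94 for Cxcl14 and −2.35 for Pf4. For Ccl7, Ccl3, Ccl6, Cxcl5, Cxcl9 and Cxcl10 the diet change was called in opposite directions at the 2 times, but 1 of the 2 calls was lost when single arrays were left out for Ccl7 (12 weeks, adjusted p of 0.0601 to 0.144), Ccl3 (24 weeks, 0.0651 to 0.167) and Cxcl10 (24 weeks, 0.0846 to 0.105). The calls for Ccl2, Ccl8 and Ccl17 were lost when single arrays were left out, with adjusted p of 0.061 to 0.073, 0.0504 to 0.116 and 0.0584 to 0.0621, and that for Ccl20 under normexp with quantile normalization (0.259). Groups of 2 arrays are too small for a test of single outlying arrays.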

How the results depend on the processing

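Of 2441 ligand results recomputed under 19 settings, 2290 kept their direction and their side of the threshold, 101 lost the call, 37 gained one and 13 changed sign. The sign changes were for Ccl25 at 12 weeks by diet (0.13 without C12 replicate 1 and −0.21 without C12 replicate 2, 0.19 with the second brightest probe), between C24 and C12 (−0.14 without C12 replicate 2, 0.20 without C12 replicate 1, −0.10 without C24 replicate 1), in the interaction (0.0022 without C12 replicate 2, −0.33 without C12 replicate 1) and between HF24 and HF12 (0.15, second probe). They were also for Ccl4 (−0.048 under normexp with quantile, −0.021 under quantile normalization) and Ccl8 (−0.0065 and −0.019) between HF24 and C24, for Cxcl14 there (0.0035 without HF24 replicate 2, −0.063 without HF24 replicate 1), for Cxcl16 between C24 and C12 (−0.012 under normexp with quantile) and for Cxcl12 between HF24 and HF12 (0.82, second probe, called). None of these but the last was called under either setting; the cause was not tested, and the 2 Cxcl12 probes target different transcripts.

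Leaving out 1 array at a time took the genes called higher to between 2531 and 3797 and lower to between 2822 and 4925 for HF12 against C12 (higher calls lowest without either HF12 array, lower calls without HF12 replicate 1, HF12 replicate 2 or C12 replicate 1), higher to between 2555 and 4367 for HF24 against C24 (lowest without either HF24 array or C24 replicate 1), higher to between 4023 and 6692 for HF24 against HF12 (lowest without HF12 or HF24 replicate 1), and positive interactions to between 2654 and 3477 (lowest without HF12 replicate 1). Ligands called higher for HF24 against C24 ran from 5 to 8 (5 without HF24 replicate 1), lower for C24 against C12 from 3 to 5 (3 without C12 replicate 2 or C24 replicate 1), lower for HF24 against HF12 from 4 to 5, and positive interactions from 3 to 5 (3 without C12 replicate 2, HF12 replicate 2 or C24 replicate 1). These fits have fewer arrays, and a lone array was assumed to vary like the other groups.

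Without the filter on dim probes, 2933 genes were called higher for HF24 against C24, 12972 for C24 against C12 and 13144 for HF24 against HF12; the median of all genes then moved to 0.10, 0.15 and 0.13. With only probes above background on all arrays, 2 ligands each were called lower for C24 against C12 and for HF24 against HF12. Under normexp with quantile normalization 7 ligands were called lower for HF24 against HF12, and under quantile normalization 8 interactions were positive. With the replicate number as a replicate block, 19 ligands were called for HF12 against C12 (Ccl5, Ccl7 and Ccl8 lost), 18 for HF24 against C24 (Ccl3 lost), 26 for C24 against C12, 21 for HF24 against HF12 (Ccl19 lost) and 18 for the interaction (Ccl8 lost), which here also takes in ligands dim in a group. The signal over background limits Ccl1, Ccl24, Ccl28, Cxcl2, Cxcl3, Cxcl13 and Xcl1 to bounds in some groups.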
